A study of Rattus norvegicus with 10 samples.

Results

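The cytochrome P450 genes of rat lung were taken as every gene of the deposited expression table whose symbol starts with Cyp and a digit, together with Por, the reductase that supplies these enzymes with electrons. This gave 72 Cyp genes and Por, 73 of the 22250 genes in the table. The study sequenced messenger RNA from whole lung of rats in 2 groups of 5 libraries, named MOD 1 to 5 and XBS 1 to 5. Its design text describes neutrophilic asthma, induced with the bacterial cell wall component lipopolysaccharide and the egg protein ovalbumin, and a formula abbreviated SP that was then given. The labels neither expand MOD and XBS nor tie either name to that formula, and they give no strain, age, sex, dose or time, so the comparison is reported as XBS against MOD. They also list a human bronchial epithelial cell line beside the rat lung tissue. The table holds rat genes, and the alveolar surfactant gene Sftpc stood at 5902 to 14374.5 CPM (counts scaled to library size and composition).

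Cytochrome P450 enzymes are haem proteins that insert oxygen into their substrates. Members of families 1 to 3 mainly oxidise foreign compounds such as drugs, smoke components and solvents, while other families build or break down fatty acids, eicosanoids, sterols, steroid hormones, retinoic acid and vitamin D. In rodent lung, P450 activity is concentrated in club cells, the secretory cells of the small airways, and in alveolar type 2 cells. There it detoxifies inhaled chemicals and also turns some of them, such as naphthalene and plant furans, into reactive products that injure those same cells.

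Depth and library quality were as follows. Totals ranged from 11998979 to 15518929 counts, so 3 counts, used here as the limit of detection, corresponded to 0.193 to 0.25 CPM (counting error only). The libraries XBS 2 and XBS 3 were low in airway epithelial RNA: marker genes of club cells summed to 4244 and 5894 CPM there and to 10533 to 14650 CPM in the other 8 libraries, and ciliated cell markers to 389 and 390 against 690 to 1177 CPM. Secretoglobin Scgb1a1, the main club cell product, had 1934 and 2158 CPM in these libraries and 6666 to 10835 CPM elsewhere. Foxj1, the ciliated cell regulator, was on the list of 14 ciliated markers, of which 13 were found in the table. Its own level is not given here. The liver list summed to 262 to 445 CPM, with its defining marker Alb at 0 to 0.814 CPM. Star of the adrenal cortex stood at 1.63 to 4.27 CPM. XBS 5 stood apart in other lists: alveolar type 2 markers summed to 16437 CPM there and to 24460 to 33433 elsewhere, and thymus and lymph node markers to 337 against 138 to 198. Heart muscle markers summed to 418 CPM in XBS 5 and 326 in MOD 4, against 36.3 to 107.5 in the other 8 libraries. In bulk lung, fewer cells of a type and less RNA per cell cannot be told apart. Whether each library is a separate animal is not stated in the labels, and p-values therefore cover only the spread among these 10 libraries.

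A few genes made up most of the P450 RNA. Measured per length as FPKM (counts scaled to gene length and library total, as deposited), 2 members exceeded 100, another 10 lay between 10 and 100, 14 between 1 and 10, and 47 were under 1. Cyp2b1, which oxidises many drugs and is produced constitutively in rat lung, averaged 171 FPKM over the 10 libraries. Cyp4b1, a lung-rich enzyme that hydroxylates fatty acids and activates plant furans, averaged 163 FPKM. Cyp2b1 was above Cyp4b1 in 6 of 10 libraries, and the order of their means differed between the groups. In MOD, Cyp4b1 averaged 199 ± 6.02 and Cyp2b1 173 ± 20.3 FPKM. In XBS, Cyp4b1 averaged 128 ± 14.3 and Cyp2b1 169 ± 27.5 FPKM (SD, n = 5). These 2 genes together supplied 55.0% ± 2.09 of the summed P450 FPKM in MOD and 50.2% ± 8.74 in XBS (SD, n = 5), with XBS 5 lowest at 36.0%.

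Next in level came Por at 75.1 FPKM and Cyp2f4, the naphthalene-activating enzyme of club cells, at 57.5 FPKM with a range of 2.75 to 168. Then followed Cyp4v3, a fatty acid hydroxylase (42.5), the cholesterol synthesis enzyme Cyp51 (27.0), Cyp20a1, whose substrate is not established (22.6), the epithelial enzyme Cyp2s1 (21.7), the mitochondrial sterol hydroxylase Cyp27a1 (17.4), the aryl hydrocarbon oxidase Cyp1a1 (17.3), Cyp4f6 of the family that hydroxylates leukotrienes (15.0) and Cyp26b1, which breaks down retinoic acid (13.4 FPKM). Cyp4b1 was above Por, and Cyp4v3 above Cyp51, in 10 of 10 libraries. Between the other neighbours the order changed from library to library; Cyp20a1 was above Cyp2s1, Cyp27a1 above Cyp1a1 and Cyp1a1 above Cyp4f6 in 5 of 10 each.

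**Figure D1:**
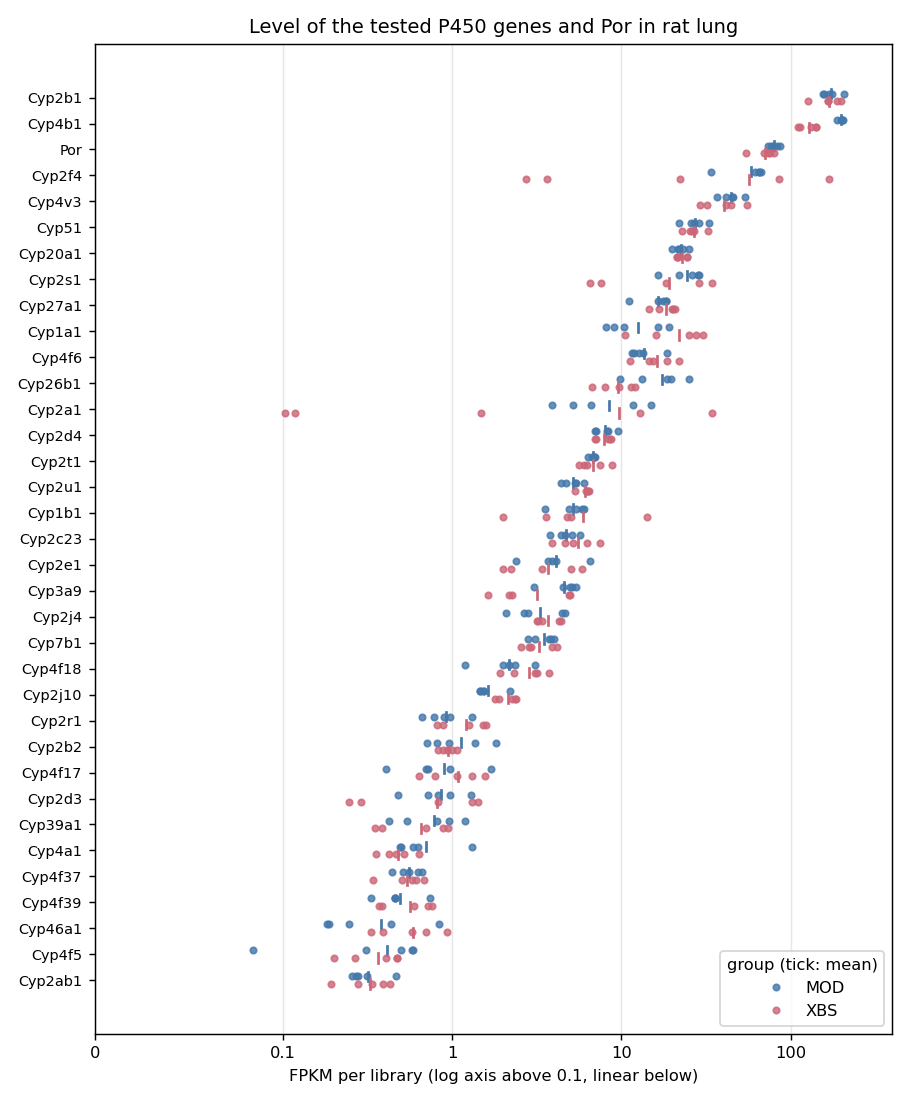
Level of the 35 tested members in each library, in FPKM on an axis that is logarithmic above 0.1 and linear below; points are libraries, blue for MOD and red for XBS, and ticks are group means (n = 5). Cyp2b1 and Cyp4b1 lead, and Cyp2f4, Cyp2a1 and Cyp2s1 spread widely in XBS.

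At the other end, 13 members had 0 counts in all 10 libraries, which allows up to 3 counts in each. They included Cyp7a1, the rate-limiting enzyme of bile acid synthesis in liver, Cyp24a1, which inactivates vitamin D, and the liver enzymes Cyp2c7, Cyp2c12 and Cyp2c13. A further 25 members had counts but were too low to be tested. All 5 steroid hormone enzymes were in this group, among them Cyp11a1, which starts steroid synthesis from cholesterol, with 0 to 7 counts per library, and Cyp21a1, with 2 to 14 counts, which lies over another gene in the table. That left 35 tested members.

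Members that lie next to each other in the genome differed widely in level. Positions are those of the deposited table, whose rat build no source used here names. With neighbours at most 1 Mb apart, 45 members fell into 11 clusters. Cyp4b1 (ENSRNOG00000055078, chromosome 5, 134508730 to 134526089, minus strand) ends a cluster of 6 genes whose other 5 members, Cyp4x1, Cyp4a8, Cyp4a2, Cyp4a3 and Cyp4a1, were all under 1 FPKM. Cyp4a1, a fatty acid hydroxylase of liver and kidney, lies beside it and had 0.592 FPKM. On chromosome 1, from 82595211 to 83969559, a cluster of 9 genes held Cyp2f4, Cyp2a1, Cyp2s1 and Cyp2t1 beside 4 genes under 1 FPKM. Of the 8 clustered Cyp4f genes on chromosome 7, 7 were under 1 FPKM and Cyp4f6 was the exception. All 5 members of the Cyp2c cluster on chromosome 1 from 257970345 to 259287684 were under 1 FPKM. The table places Cyp2b1 (ENSRNOG00000033680) on chromosome 7, whereas RefSeq places it on chromosome 1 in GRCr8. Its close paralogue Cyp2b2 had 1.04 FPKM, and no source used here says how reads were divided between such paralogues. Cyp4f5 and Cyp4f17 overlap on the same strand and are likewise uncertain. So are Cyp2e1, Cyp2t1 and Cyp2ab1, each of which overlaps a gene on the opposite strand, to unequal degrees. Over all libraries the overlapping gene had 17 counts against 1275 for Cyp2e1. It had 11371 against 1820 for Cyp2t1 and 8387 against 104 for Cyp2ab1.

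Sequence upstream of the start is shown for 4 members that the results below turn on: Cyp4b1, the member that fell, Cyp2b1, of similar level and not called, Cyp26b1, whose fold change was the largest among the 35 tested, and Cyp1b1, a classical target of the aryl hydrocarbon receptor. Each is the 250 bases before the RefSeq start in GRCr8, printed 5′ to 3′ on the gene's strand. Capitals mark CACCC or its reverse complement GGGTG, the box bound by Krüppel-like factors, in the first 3, and GCGTG or its reverse complement CACGC, the core bound by the aryl hydrocarbon receptor, in Cyp1b1. The regions are chr5:134393117-134393366 (minus strand), chr1:90645869-90646118 (plus), chr4:118616177-118616426 (minus) and chr6:21094315-21094564 (plus).
Cyp4b1: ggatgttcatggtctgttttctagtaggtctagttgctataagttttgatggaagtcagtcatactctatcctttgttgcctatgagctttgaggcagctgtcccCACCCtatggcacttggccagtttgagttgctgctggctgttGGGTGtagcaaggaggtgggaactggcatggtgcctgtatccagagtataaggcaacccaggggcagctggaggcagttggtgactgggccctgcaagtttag
Cyp2b1: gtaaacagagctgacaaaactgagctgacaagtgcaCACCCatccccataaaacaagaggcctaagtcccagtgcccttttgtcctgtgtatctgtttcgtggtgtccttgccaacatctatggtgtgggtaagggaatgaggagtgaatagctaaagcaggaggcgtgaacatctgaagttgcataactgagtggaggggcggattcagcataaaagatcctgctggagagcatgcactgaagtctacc
Cyp26b1: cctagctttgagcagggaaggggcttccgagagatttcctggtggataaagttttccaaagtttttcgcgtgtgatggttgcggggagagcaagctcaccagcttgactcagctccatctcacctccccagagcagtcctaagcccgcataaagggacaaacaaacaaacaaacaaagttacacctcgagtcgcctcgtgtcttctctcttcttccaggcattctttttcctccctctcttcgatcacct
Cyp1b1: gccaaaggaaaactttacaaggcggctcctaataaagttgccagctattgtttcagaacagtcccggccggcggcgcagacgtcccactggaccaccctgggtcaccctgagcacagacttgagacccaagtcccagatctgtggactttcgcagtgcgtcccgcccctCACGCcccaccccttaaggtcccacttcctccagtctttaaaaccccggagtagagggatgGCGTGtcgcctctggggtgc
The Cyp1b1 window held 4 CACCC boxes (in lower case there), that of Cyp4b1 held 2, that of Cyp2b1 held 1 and that of Cyp26b1 held 0. The receptor core occurred 2 times in Cyp1b1, 1 time each in Cyp2b1 and Cyp26b1 (in lower case) and 0 times in Cyp4b1. A CACCC box was found in 49.2% of all 33469 RefSeq promoter windows of this length and in 37 of the 63 windows that matched 59 members; the GCGTG core in 25.9% and in 20 of 63. The glucocorticoid receptor motif AGAACA or TGTTCT, present in 17.5% of all windows, was in 14 of the 63, in Cyp1b1 but in none of the other 3 shown. The E-box CACGTG of clock factors was in 5.59% of all windows and in 1 of 63. The TATA box TATAAA or TTTATA was in 12.9% of all windows and in 16 of 63, and in none of the 4 shown. These matches describe the letters only.

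The comparison of XBS with MOD asked which P450 genes differed between the groups. Cyp4b1 fell 1.58-fold, and no other member passed the test. The 35 tested members divided into 0 that rose, 1 that fell and 34 that missed an adjusted p of 0.05 (edgeR's quasi-likelihood test, Benjamini-Hochberg over all 14320 genes tested). Among all genes tested, 0.0768% were called, 0.0489% lower and 0.0279% higher. The members' median log2 fold change was -0.05, against 0.01 over all genes tested, with 20 members negative and 15 positive; over all genes 48.1% were negative. At an unadjusted p under 0.05 edgeR gave 2 members lower, Cyp4b1 and Cyp26b1, and 2 higher, Cyp1a1 and Cyp2j10, beside 5.78% lower and 7.4% higher among all genes. The fold change was under 0.25 on the log2 scale in either direction for 23 of the 35. DESeq2 called 2 members lower, Cyp4b1 and Cyp26b1, where it called 0.915% of all genes lower and 1.31% higher.

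Cyp4b1 stood at 395, 396, 402, 377 and 405 CPM in MOD 1 to 5 and at 273, 258, 225, 272 and 219 CPM in XBS 1 to 5. Every XBS library was below every MOD library, and the MOD libraries lay close together, with a coefficient of variation of 2.85%. The means were 395 ± 11.2 and 249 ± 25.7 CPM (SD, n = 5), a log2 fold change of -0.66 ± 0.08 (SE; edgeR adjusted p = 0.0104). It was the 1 tested member whose groups did not overlap, with XBS below MOD as in 1.13% of all tested genes; 0 members had XBS wholly above MOD, as 1.61% of genes did. By DESeq2 the adjusted p was 7.63e-14 and by limma voom with sample weights 0.00508. Limma voom called 1 member lower and 0 higher, against 0.168% and 0.293% of all genes. The gene passed whichever single library was left out. It did not pass without both XBS 2 and XBS 3 (log2 fold change -0.63, adjusted p = 0.0715 by edgeR). Nor did it pass with the replicate number as a block (log2 fold change -0.67, adjusted p = 0.118 by edgeR). Without XBS 5, its lowest library, the log2 fold change was -0.62 (edgeR adjusted p = 0.0253).

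The values of Cyp4b1 were set beside the airway content of each library. XBS 4 and XBS 5, which had the highest airway scores (1.04 at most, the mean of the centred log2 levels of the club and ciliated lists, which hold no P450 gene), had 272 and 219 CPM of Cyp4b1. XBS 2 and XBS 3, with the lowest scores of -1.88 and -1.67, had 258 and 225 CPM. With the airway score as a covariate, the log2 fold change of Cyp4b1 was -0.66 (edgeR adjusted p = 0.0319). Per 100 Scgb1a1 counts, Cyp4b1 had 3.71 to 6.08 counts in MOD and 3.90, 13.3, 10.4, 3.51 and 3.13 in XBS 1 to 5. On this measure the groups overlapped, and the means were 4.77 ± 0.924 in MOD and 6.86 ± 4.71 in XBS (SD, n = 5). The part of airway content in the Cyp4b1 difference was not tested. Alveolar type 1 markers summed to 5247 to 8016 CPM in XBS and 7822 to 9189 in MOD, overlapping ranges, with 0 of 10 tested genes past the threshold and all 10 negative. Of other lists, 8 of 9 tested endothelial and 7 of 9 alveolar type 2 genes were negative, and 8 of 8 macrophage genes positive, 0 past the threshold. Alveolar type 2 markers summed lowest in XBS 5 (16437 CPM), where Cyp4b1 was also lowest. They summed highest in XBS 3 (33433 CPM), which had 225 CPM of Cyp4b1. The part of these cell types in the result was not tested.

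**Figure D2:**
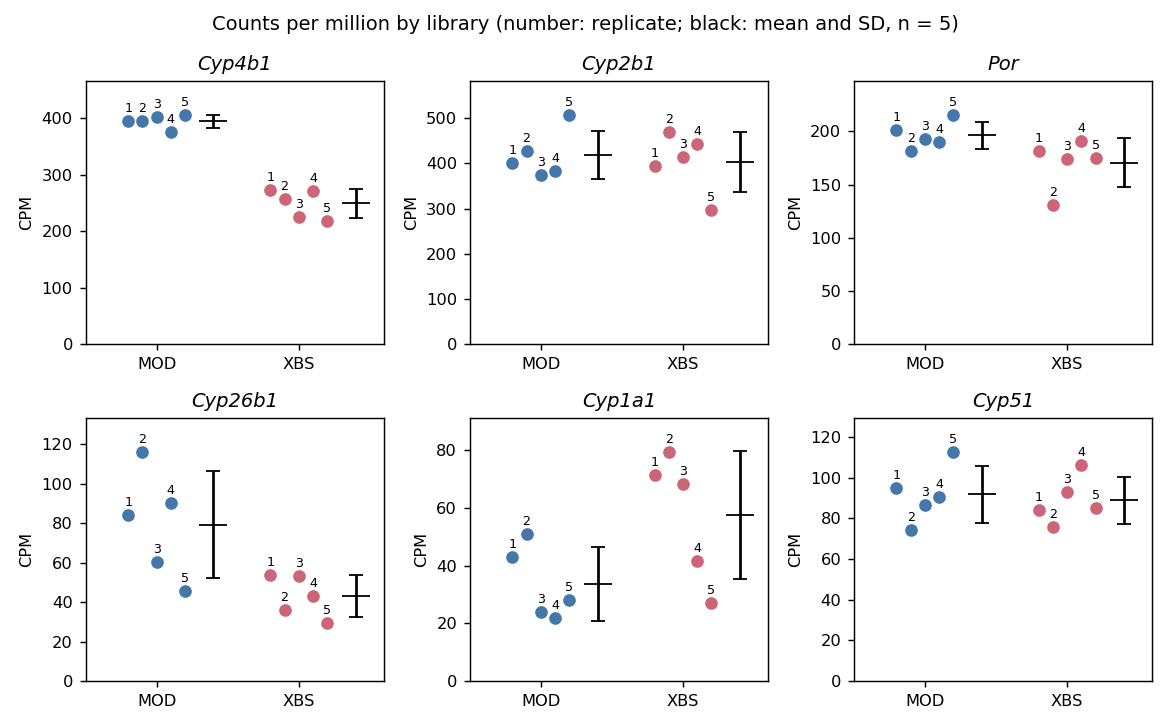
CPM of 6 members in each library, with linear axes from 0; points are libraries numbered by replicate, and the black bar beside them is mean and SD (n = 5). Cyp4b1 separates the groups, and the groups overlap for Cyp26b1, Cyp1a1, Cyp2b1, Por and Cyp51, none of which passed the test.

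Cyp2b1, of similar level to Cyp4b1, was not called. It had 401, 427, 374, 383 and 506 CPM in MOD 1 to 5 and 393, 470, 414, 443 and 296 CPM in XBS 1 to 5, with overlapping groups. The log2 fold change was -0.05 ± 0.13 (SE; edgeR adjusted p = 0.88), and 0.04 without XBS 5. To describe Cyp4b1 beside other abundant members, its ratio to each of Cyp2b1, Por and Cyp4v3 was compared, a choice made after the values were seen. Per Cyp2b1 count there were 0.955 ± 0.101 Cyp4b1 counts in MOD and 0.628 ± 0.0872 in XBS (SD, n = 5; exact permutation test, two-sided, p = 0.00794, the lowest possible for 5 against 5 libraries, and 0.0238 adjusted over 3 ratios). Each XBS library (0.545 to 0.740) was below each MOD library (0.801 to 1.08). Since Cyp4b1 had been seen to fall, these ratios are no independent sign of its change or of a difference between members. The adjustment over 3 ratios does not cover the choice of Cyp4b1 among the members. Per Por count the ratio was 2.02 ± 0.117 in MOD and 1.49 ± 0.288 in XBS (SD, n = 5; exact permutation p = 0.0238, adjusted 0.0357), with XBS 2 at 1.97 inside the MOD range. Per Cyp4v3 count it was 2.43 ± 0.290 and 1.79 ± 0.484 (SD, n = 5; exact permutation p = 0.0476, adjusted 0.0476), with overlapping groups. The Cyp4v3 difference stayed under 0.05 without MOD 5, XBS 1 or XBS 5 and was above it in the other 8 of 11 runs that left out libraries (exact permutation p of 0.0635 to 0.214).

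Por, which passes electrons from NADPH to the microsomal P450s, had 181 to 215 CPM in MOD (median 193) and 181, 131, 174, 191 and 175 CPM in XBS 1 to 5. Its lowest library was XBS 2. Means of 196 ± 12.7 and 170.5 ± 23.2 CPM (SD, n = 5) gave a log2 fold change of -0.20 ± 0.10 (SE; edgeR adjusted p = 0.408). With the airway score as a covariate it was -0.13. The summed P450 FPKM per Por FPKM was 8.48 ± 0.195 in MOD and 8.59 ± 1.18 in XBS (SD, n = 5). Members together took 0.184% ± 0.00883 of all counts in MOD and 0.166% ± 0.0197 in XBS (SD, n = 5), with ranges of 0.177 to 0.198% and 0.147 to 0.187% that overlapped.

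Other proteins that pass electrons to P450s, or bind them, were tested as a list. Of 12 tested genes of this list, Por included, 0 rose, 0 fell and 12 did not pass; 10 were negative, with a median log2 fold change of -0.06. Pgrmc1, a haem-binding partner of P450s, had 360 to 394 CPM across MOD and 310 to 360 across XBS, means of 379 ± 13.1 and 331 ± 18.5 (SD, n = 5). Its groups did not overlap, but it did not pass (edgeR adjusted p = 0.237). Its relative Pgrmc2 had 130 ± 6.96 and 117 ± 3.31 CPM (SD, n = 5; edgeR adjusted p = 0.327).

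Among families 1 to 3, the enzymes of foreign compounds, 14 of 33 genes were tested and 0 rose, 0 fell and 14 did not pass (9 negative, median log2 fold change -0.05). Cyp1a1, which oxidises aryl hydrocarbons and is induced by their receptor, had 42.9, 51.1, 24.0, 21.7 and 28.1 CPM in MOD 1 to 5 and 71.6, 79.4, 68.4, 41.6 and 27.0 CPM in XBS 1 to 5. The first 3 XBS libraries lay above all of MOD, and XBS 4 and XBS 5 lay within its range. Its log2 fold change was 0.78 ± 0.33 (SE), 1.71-fold higher, and did not pass (edgeR adjusted p = 0.354). With the airway score as a covariate it was 0.40. Cyp1b1, an enzyme of the same family found in stromal cells, had 10.8 to 33.9 CPM in 9 libraries and 75.7 CPM in XBS 5. In XBS 5 fibroblast markers also summed highest, to 8800 CPM against 2896 to 5310 CPM in the others, as did smooth muscle markers, at 3988 against 1253 to 2403 CPM; their part in the Cyp1b1 value was not tested. The log2 fold change of Cyp1b1 was 0.16 ± 0.43 (SE) and turned to -0.44 without XBS 5 (edgeR adjusted p = 0.424).

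The receptor that induces Cyp1a1 was followed through a list of its pathway. Of 8 tested genes 0 rose, 0 fell and 8 did not pass, with 3 positive and 5 negative. Ahr, the receptor itself, had 141 ± 41.1 in MOD against 175 ± 52.7 CPM in XBS (SD, n = 5; edgeR adjusted p = 0.575). Tiparp, another gene it induces, did not pass either, at 33.8 ± 5.15 and 25.8 ± 1.29 CPM (SD, n = 5; edgeR adjusted p = 0.188). Ptges3, a cochaperone of the receptor, had 230 ± 10.03 and 205 ± 9.82 CPM (SD, n = 5; edgeR adjusted p = 0.294).

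Cyp2f4, the naphthalene-activating enzyme, had 124, 65.5, 128, 119 and 127 CPM in MOD 1 to 5 and 41.75, 5.18, 7.21, 161 and 311 CPM in XBS 1 to 5. XBS 1, XBS 2 and XBS 3 lay below all of MOD, XBS 2 and XBS 3 by the most, and XBS 4 and XBS 5 lay above all of MOD. The coefficient of variation was 125% in XBS and 23.6% in MOD, and no difference could be resolved (log2 fold change -0.10 ± 0.88 SE; edgeR adjusted p = 0.969). Without XBS 2 and XBS 3 the log2 fold change was 0.61 (edgeR adjusted p = 0.656), and without XBS 5 it was -1.06 (0.54). Per 100 Scgb1a1 counts Cyp2f4 had 0.867 to 1.90 counts in MOD and 0.597, 0.268, 0.334, 2.07 and 4.45 in XBS 1 to 5, so that 3 XBS libraries were below all of MOD and the other 2 above. For Cyp2f4 the log2 fold change was -0.16 with the airway score as a covariate (edgeR adjusted p = 0.759). The effect of the airway score itself was not tested.

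Cyp2a1 and Cyp2s1, on the same stretch of chromosome 1, were also lowest in XBS 2 and XBS 3. Cyp2a1 was chosen after its values were seen. Its entry spans 83653234 to 83766484 with a listed length of 5712 bases. No other member is named Cyp2a, and no source used here says which Cyp2a transcripts this entry counts. Cyp2a1, a steroid and drug hydroxylase, had 22.5 to 87.2 CPM in MOD, 0.666 and 0.606 CPM in XBS 2 and XBS 3, 8.30 CPM in XBS 1, 72.4 CPM in XBS 4 and 189.6 CPM in XBS 5. Cyp2s1 had 44.0 to 77.2 CPM in MOD, 17.1 and 20.6 CPM in XBS 2 and XBS 3 and 47.3 to 88.6 CPM in the other XBS libraries. The log2 fold changes were 0.14 ± 1.13 and -0.39 ± 0.41 (SE; edgeR adjusted p = 0.965 and 0.702). That of Cyp2s1 was -0.09 with the airway score as a covariate (edgeR adjusted p = 0.795). The direction of Cyp2a1 depended on the fit: its log2 fold change was -1.75 with limma voom (adjusted p = 0.473), -0.28 with the airway covariate (edgeR, 0.699) and -1.25 without XBS 5 (edgeR, 0.581). Of the 35 tested members, 6 had their 2 lowest libraries in XBS 2 and XBS 3: Cyp2f4, Cyp2a1, Cyp2s1, Cyp3a9, Cyp39a1 and Por. The share of all 14320 tested genes with this pattern was not counted, so the 6 are no result about P450 genes. Cyp2t1, which lies beside Cyp2f4 in the table, did not share this pattern, with 12.1 to 13.3 CPM across MOD and 10.5 to 16.1 across XBS. Its level was chosen for display because of that position. The level is uncertain, since Cyp2t1 overlaps Egln2 on the opposite strand, which had 11371 counts over all libraries against 1820 for Cyp2t1.

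**Figure D3:**
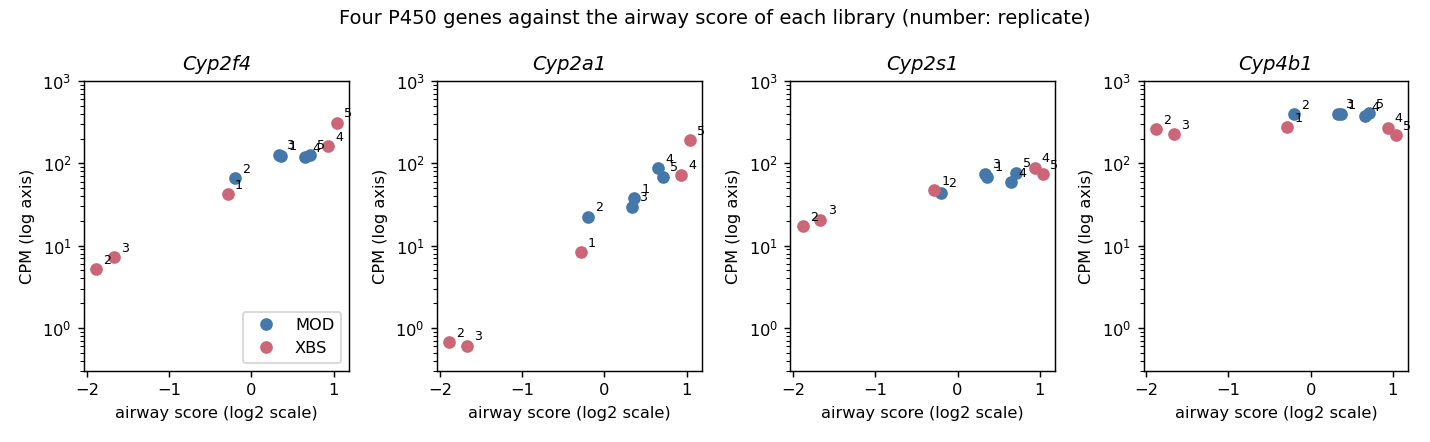
CPM (log axis) of Cyp2f4, Cyp2a1, Cyp2s1 and Cyp4b1 against the airway score of each library (log2 scale); points are libraries numbered by replicate, blue for MOD and red for XBS. XBS 2 and XBS 3 lie far left, where Cyp2f4 had 5.18 and 7.21 CPM and Cyp4b1 had 258 and 225 CPM.

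The remaining named genes of families 1 to 3 were low. Cyp2e1, which oxidises ethanol and small solvents, had 9.67 ± 3.55 in MOD against 8.56 ± 3.91 CPM in XBS (SD, n = 5; edgeR adjusted p = 0.842). Cyp3a9, of the steroid and drug oxidising family 3, had 7.03 ± 1.45 and 4.74 ± 2.32 CPM (SD, n = 5; edgeR adjusted p = 0.452). Its XBS libraries divided into 2.56 to 3.37 CPM in XBS 1, 2 and 3 and 7.34 and 7.17 CPM in XBS 4 and XBS 5.

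Fatty acid and eicosanoid enzymes had 12 of 20 genes tested; 0 rose, 1 fell, which was Cyp4b1, and 11 did not pass. Their median log2 fold change was 0.15, with 7 positive. Cyp2j10, of the arachidonic acid epoxygenase subfamily, had 5.66 to 8.72 CPM across MOD and 6.89 to 9.20 across XBS, and its log2 fold change of 0.36 ± 0.16 (SE) did not pass (edgeR adjusted p = 0.373). Cyp2u1, a hydroxylase of long-chain fatty acids, had 13.5 ± 1.51 and 15.7 ± 1.32 CPM (SD, n = 5; edgeR adjusted p = 0.419). Cyp4f18 and Cyp4f6, of the leukotriene-hydroxylating subfamily, had log2 fold changes of 0.37 ± 0.25 and 0.24 ± 0.18 (SE; edgeR adjusted p = 0.52 and 0.569). Neutrophil markers summed to 382 to 609 CPM across MOD and 413 to 1020 across XBS. They were highest in XBS 2, where Cyp4f18 was also highest at 11.1 CPM. In XBS 3, with the next highest sum of 627 CPM, Cyp4f18 was at 5.93 CPM, its lowest value in XBS. The part of neutrophils was not tested. Cyp4v3, the second most abundant gene of this role, had 165 ± 24.2 and 148 ± 41.3 CPM (SD, n = 5; edgeR adjusted p = 0.719). Cyp4a1 stood at 1.49 ± 0.744 and 1.00 ± 0.219 CPM (SD, n = 5; edgeR adjusted p = 0.466). Summed over this role, FPKM was 250 to 284 in MOD and 173 to 219 in XBS, of which Cyp4b1 supplied the larger part.

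Of 5 tested sterol and bile acid enzymes, 0 rose, 0 fell and 5 did not pass. Cyp51, which demethylates lanosterol on the way to cholesterol, had 91.8 ± 13.9 in MOD against 88.8 ± 11.4 CPM in XBS (SD, n = 5; log2 fold change -0.05 ± 0.12 SE, edgeR adjusted p = 0.884). Cyp27a1, abundant in macrophages, had 37.7 ± 6.79 and 41.8 ± 6.74 CPM (SD, n = 5; edgeR adjusted p = 0.677). Macrophage markers summed to 701 to 889 CPM across MOD and 832 to 1184 across XBS; their part was not tested. Cyp7b1, which breaks down oxysterols, had 10.03 ± 1.596 and 9.16 ± 1.82 CPM (SD, n = 5; edgeR adjusted p = 0.762). Cyp46a1, a cholesterol hydroxylase best known from neurons, had 0.496 to 2.22 CPM across MOD and 0.861 to 2.47 across XBS with a log2 fold change of 0.61 ± 0.46 (SE; edgeR adjusted p = 0.572).

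Among the vitamin D and retinoic acid enzymes 2 of 6 were tested, and 0 rose, 0 fell and 2 did not pass. Cyp26b1, which clears retinoic acid, had 84.4, 116, 60.4, 90.1 and 45.8 CPM in MOD 1 to 5 and 53.7, 36.1, 53.4, 43.2 and 29.5 CPM in XBS 1 to 5. The groups overlapped through MOD 5, which lay below XBS 1 and XBS 3; the other MOD libraries were above all of XBS. With 79.4 ± 27.3 against 43.2 ± 10.6 CPM (SD, n = 5) it was 1.84-fold lower in XBS, a log2 fold change of -0.88 ± 0.25 (SE). It did not pass by edgeR (adjusted p = 0.205) or by limma voom (0.186) and passed by DESeq2 (0.0257). Endothelial markers summed to 2646 to 3866 CPM in XBS and 3527 to 5052 in MOD, overlapping ranges, with 0 of 9 tested genes past the threshold and 8 negative; their part was not tested. Rarb, a retinoic acid receptor gene that is itself induced by retinoic acid, had 42.9 ± 4.06 and 35.7 ± 7.28 CPM (SD, n = 5; edgeR adjusted p = 0.408). Cyp2r1, which starts the activation of vitamin D, had 1.58 ± 0.434 and 2.03 ± 0.569 CPM (SD, n = 5; edgeR adjusted p = 0.576). Cyp20a1, the orphan member, stood at 44.9 ± 3.81 and 44.7 ± 2.96 CPM (SD, n = 5; edgeR adjusted p = 0.97).

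**Figure D4:**
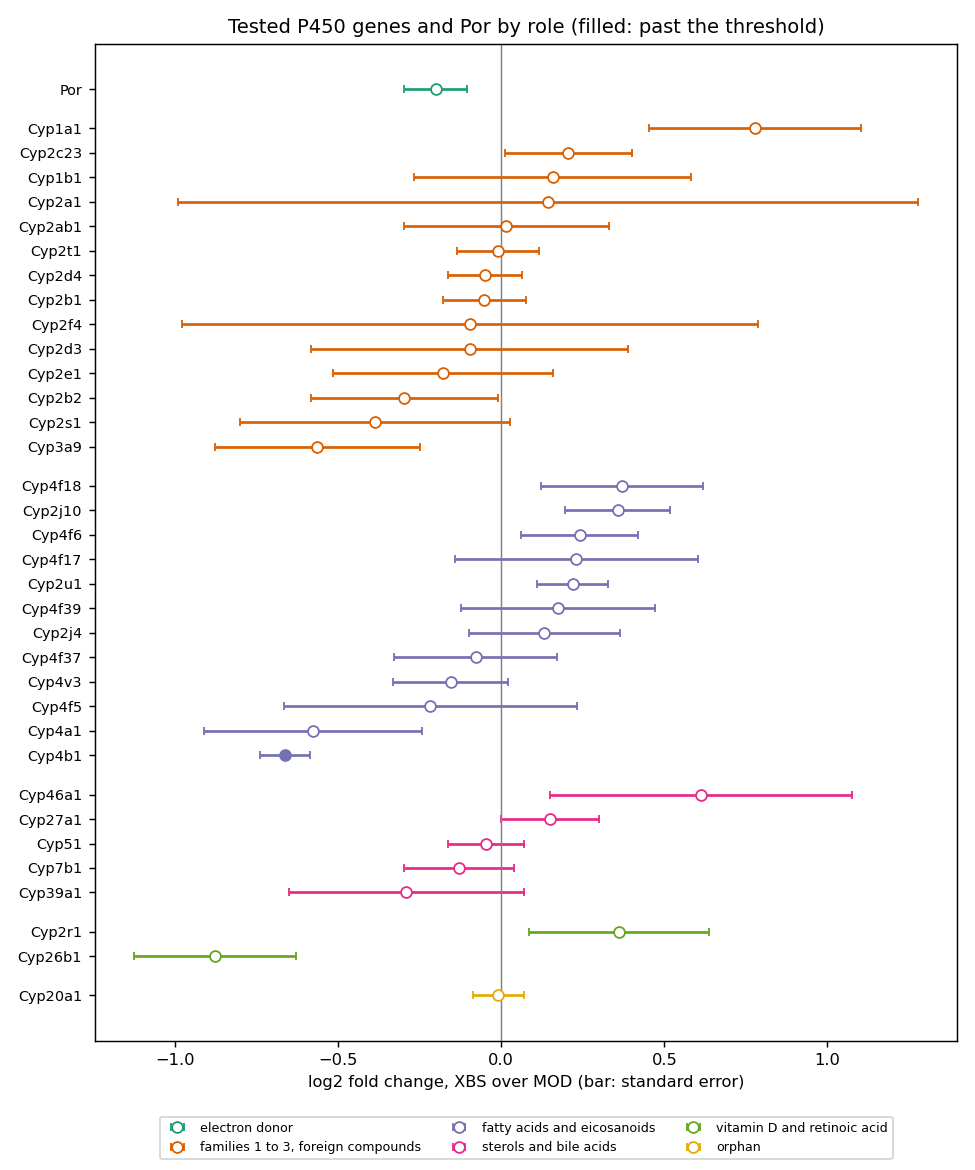
Log2 fold change of XBS over MOD with its standard error for the 35 tested members, ordered within role (colours); filled points passed an adjusted p of 0.05 by edgeR. Cyp4b1 at -0.66 is the filled point, and Cyp26b1 at -0.88 and Cyp1a1 at 0.78 lie farther from 0 with wider errors.

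Nuclear receptors that control P450 genes gave 0 higher, 0 lower and 18 not passing of 18 tested, with 9 negative. Nr1i3, the constitutive androstane receptor that induces family 2 genes in liver, had 5.98 ± 1.30 and 7.46 ± 0.982 CPM (SD, n = 5; edgeR adjusted p = 0.454). Tbxas1, which encodes thromboxane synthase and is a P450 by structure though not by symbol, had 27.4 ± 4.22 and 28.4 ± 8.15 CPM (SD, n = 5; edgeR adjusted p = 0.91). Other oxidising and epoxide-handling enzymes gave 0 higher, 0 lower and 20 not passing of 20 tested, 13 negative with a median log2 fold change of -0.07. The flavin monooxygenase gene Fmo2 had 312, 347, 290, 415 and 248 CPM in MOD 1 to 5. In XBS 1 to 5 it had 154, 166, 178, 166 and 229 CPM. Its groups did not overlap, and its log2 fold change of -0.85 ± 0.14 (SE) did not pass (edgeR adjusted p = 0.0833). Fmo1 had 199.9 ± 59.1 and 125 ± 24.7 CPM (SD, n = 5; edgeR adjusted p = 0.237).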

How the data were processed

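RNA from rat lung was sequenced in 10 libraries, 5 per group. The authors deposited 1 table with raw read counts per gene and, beside them, FPKM, per the file headers. Dividing each count by the listed length and the library's sum gave back the deposited FPKM (relative deviation at most 8.82e-08). No source used here names the aligner, counter, annotation release, strand setting or rat build; the submitters' processing notes name human and mouse builds. Groups follow the sample titles. The members, gene lists and tests were chosen with earlier results of these data known.

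Low genes were removed by filterByExpr (at least 10 counts, and 15 in total), leaving 14320 genes with 99.9% of counts. After TMM scaling, the quasi-likelihood test of edgeR 4.0.16 in R 4.3.3 was applied, with Benjamini-Hochberg adjustment over all tested genes and a threshold of 0.05. CPM are TMM-scaled and compare libraries; FPKM compare genes. Named genes were the members past the threshold, the 12 of smallest p, the 12 of highest mean FPKM and a list of well-known lung, sterol and vitamin enzymes. From each pathway list, the 2 of smallest p and any past the threshold were named. Ahr, and members named for their low counts, position, overlap or lowest libraries, fall outside this rule. Other genes are stated as chosen after their values were seen or serve as markers. Alternatives were RLE and upper quartile scaling, DESeq2 1.42.0, limma 3.58.1 voom with sample weights, other filters, a replicate block, an airway score covariate and leaving out libraries. In simulated counts for this comparison over 14320 genes, 34.3% of genes changed 1.5-fold, 67.2% of those changed 2-fold and 93.9% of those changed 4-fold were recovered, and 5.8% of calls were false. Between libraries of a group, counts differed by more than sampling noise (chi-square per degree of freedom at least 9.46), and no library was counted as a repeat of another; this check does not tell whether 2 libraries came from the same lung. Promoter windows are from RefSeq (GRCr8), matched by symbol.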

Additional observations from a re-analysis of the deposited data

Results flagged for a closer look

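Of 46 groups of 5 libraries examined for the 23 named members, 6 held a library far from the other 4. This was measured as its gap to the nearest library over the whole range of the group. Chance gives about 1 in 20 for independent groups. These groups share the same libraries and are not independent, and Cyp24a1, with 0 counts throughout, could not be flagged. In MOD 2, Cyp2j10 was high at 8.72 CPM, with the next library at 6.16 (gap of 0.837 of the range). Cyp4a1 was high in the same library, at 2.81 against 1.32 CPM (0.854), and Cyp2f4 was low there, at 65.5 against 119 CPM (0.868). Cyp4f6 was high in MOD 1, at 33.1 against 24.1 CPM (0.753). In XBS, Por was low in XBS 2, at 131 against 174 CPM (0.724), and Cyp1b1 was high in XBS 5, at 75.7 against 27.1 CPM (0.748).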

How the results depend on the processing

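Cyp4b1 was lower in XBS under all 19 alternatives (log2 fold change -0.70 to -0.62, adjusted p 7.63e-14 to 0.118) and past the threshold in 17. It missed the threshold with a replicate block (log2 fold change -0.67, adjusted p = 0.118) and without XBS 2 and XBS 3 (-0.63, 0.0715); both left 0 members lower, where DESeq2 gave 2. No alternative gave a member that rose. Over all genes the 11 calls became 329 with DESeq2, 66 with limma voom, 1 with the replicate block, 3 without XBS 2 and XBS 3, and 4 to 15 when 1 library was left out; the cause was not tested. Same-numbered libraries correlated at -0.12 to 0.33, and 1 of 5 numbers matched best with itself. These correlations cannot tell whether equal numbers share an animal, litter or day, and the labels do not say.

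Signs turned for members whose values were near 0 or widely spread; the cause was not tested. With 1 library left out at a time, the log2 fold change of Cyp2b1 ranged from -0.113 to 0.0409 (positive without MOD 5, 0.0259, or XBS 5), that of Cyp2f4 from -1.06 to 0.211 (positive without XBS 1, 0.105, XBS 2 or XBS 3, 0.203), that of Cyp2a1 from -1.25 (without XBS 5) to 0.461 (also negative without MOD 2, -0.0401, or MOD 3, -0.00053), that of Cyp51 from -0.119 to 0.0370 (positive without MOD 5 or XBS 2, 0.00599), that of Cyp20a1 from -0.0434 to 0.0381 (positive without MOD 4, XBS 1, 0.0147, or XBS 4, 0.0146), that of Cyp1b1 from -0.445 (without XBS 5) to 0.378, and that of Cyp2e1 from -0.397 to 0.0506 (without MOD 4). Without XBS 2 and XBS 3 together, Cyp2f4 was at 0.605, Cyp2s1 at 0.111 and Cyp51 at 0.00074. Cyp51 was at 0.0311 with limma voom and 0.0254 with the airway covariate, Cyp2a1 (0.14 in the main analysis) at -1.75 with limma voom, -1.69 with the replicate block and -0.279 with the airway covariate, Cyp20a1 at 0.00105 with upper quartile scaling, and Cyp1b1 at -0.0679 with limma voom and -0.0978 with the replicate block. Depth limits the low genes: a member with under 3 counts in a library cannot be told from absent.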

Other observations

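Outside the symbol rule, 7 further genes of the table are described as cytochrome P450 genes. None had enough counts to be tested, and their totals over the 10 libraries were 0 to 38 counts. The highest were 2 entries that share the symbol LOC691320 on chromosome 7, beside the Cyp4f genes, with 32 and 38 counts.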
